A study of Homo sapiens with 7 samples.

Results

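The genes described here are 34 genes of the ATF4 and unfolded protein response program, 19 of an arm that works through the transcription factor ATF4 and 15 that encode folding and degradation factors of the endoplasmic reticulum (ER). They were listed by name, and where several probes named 1 gene, the brightest on average was taken. A probe was matched for 33 of the 34, all 19 of the ATF4 arm and 14 of the ER arm, among 20045 genes with a probe, and none was matched for HERPUD1. The samples were HT1080 cells, a human fibrosarcoma line, and 6 lines derived from them with altered PTK7, a membrane pseudokinase with a role in planar cell polarity and cell motility. The control is described as parental in the methods but labelled as carrying a scrambled construct. shPTK7 cells received an shRNA against PTK7 in a retroviral RFP vector, were kept under puromycin and were a pool of 3 clones. PTK7 cells expressed the full-length FLAG-tagged protein, sPTK7 cells the soluble N-terminal fragment with FLAG, and Chz cells the Chuzhoi mutant, which carries an additional cleavage site for the protease MT1-MMP. cPTK7/726-1070 cells and cPTK7/622-1070 cells expressed C-terminal fragments with V5 and HIS tags, and the latter construct also had a signal peptide. The cPTK7/622-1070 cells were selected with the drug G418. No selection drug is named for the other overexpressing lines in the sources used here. Whether the overexpressing lines were clones or pools is not given in the sources used here. Each line was measured on 1 Illumina HumanHT-12 v4 array after 72 h of growth without an added ER stressor being named, so no difference below has a replicate check or a p-value. The same HT1080 array enters all 6 comparisons.

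Cells that accumulate unfolded proteins in the ER, or that run short of amino acids, slow general protein synthesis through phosphorylation of eIF2alpha, which favors translation of ATF4. ATF4 then induces genes for amino acid uptake and synthesis, and under lasting stress the transcription factor DDIT3 (also called CHOP) and its targets. A parallel branch through the sensors IRE1 and ATF6 and the factor XBP1 induces ER chaperones, disulfide isomerases and the machinery that removes misfolded proteins. Much of the control of ATF4, and the splicing of XBP1, takes place after transcription, and a signal summed over transcripts does not show it.

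Both arms carry known short promoter elements, and those found in the members are shown because they are sequence features through which the 2 branches are known to act. Promoter windows of 300 bases (250 before to 50 after the transcription start) came from RefSeq, build GRCh38.p14, for 31 of the 34 genes (16 of the ATF4 arm and 15 of the ER arm). A gene can have several starts, and the 31 genes had 49 windows. The search was run on both strands for TGATGNAA, the core of the C/EBP-ATF response element that ATF4 binds, and for 3 elements of the ER branch. These were the ER stress response element (CCAAT, 9 bases of any kind, then CCACG), its second form (ATTGG, any base, then CCACG) and the unfolded protein response element TGACGTGG. The C/EBP-ATF core lay in 4 members of the ATF4 arm (ASNS, CEBPG, CHAC1 and SLC3A2) and in 1 of the ER arm (HERPUD1), that is in 5 of the 49 windows, and in 3.62% of all 35116 promoter windows. Where it lay upstream of the start in an ATF4 arm gene with a probe, it is printed in capitals with up to 20 bases on each side. Each line is read 5′ to 3′ on the strand of the gene, and in CHAC1 the core stands as its reverse complement.
ASNS, chr7:97872449-97872496, minus strand: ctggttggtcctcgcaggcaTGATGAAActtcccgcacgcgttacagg
CEBPG, chr19:33374051-33374098, plus strand: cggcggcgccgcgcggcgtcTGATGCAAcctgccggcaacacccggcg
CHAC1, chr15:40953242-40953289, plus strand: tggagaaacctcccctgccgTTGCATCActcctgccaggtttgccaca

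The ER stress response element lay in 6 of the 15 ER arm genes (CALR, CANX, HSP90B1, HSPA5, PDIA6 and XBP1), in 0 of the 16 ATF4 arm genes, in 8 of the 49 windows and in 0.0769% of all windows, that is in 27 of them. The second form lay in HERPUD1, HYOU1 and SDF2L1, in 3 of the 49 windows and in 0.0541% of all windows. The unfolded protein response element lay in HYOU1, where it overlaps one of its 2 copies of the second form, that is in 1 of the 49 windows, and in 0.729% of all windows. The windows of DDIT3 and TRIB3 held none of the 4 letter strings. One element of each ER arm gene with a probe is printed, in capitals.
HSPA5, chr9:125241371-125241429, minus strand: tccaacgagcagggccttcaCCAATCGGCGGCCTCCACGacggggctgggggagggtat
HSP90B1, chr12:103930196-103930254, plus strand: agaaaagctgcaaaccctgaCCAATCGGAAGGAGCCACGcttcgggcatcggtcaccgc
CALR, chr19:12938364-12938422, plus strand: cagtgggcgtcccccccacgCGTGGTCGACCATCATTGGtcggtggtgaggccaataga
CANX, chr5:179698758-179698816, plus strand: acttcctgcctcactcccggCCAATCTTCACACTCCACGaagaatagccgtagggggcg
PDIA6, chr2:10812833-10812891, minus strand: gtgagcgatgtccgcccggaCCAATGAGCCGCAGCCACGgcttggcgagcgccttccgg
XBP1, chr22:28800583-28800641, minus strand: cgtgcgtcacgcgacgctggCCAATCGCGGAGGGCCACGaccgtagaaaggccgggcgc
HYOU1, chr11:119057360-119057410, minus strand: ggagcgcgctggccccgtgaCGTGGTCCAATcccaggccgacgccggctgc
SDF2L1, chr22:21642094-21642144, plus strand: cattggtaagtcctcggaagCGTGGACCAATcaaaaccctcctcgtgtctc
The element of CALR, HYOU1 and SDF2L1 is again the reverse complement. These matches describe the letters of the windows and were not tested for binding.

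Between 19045 and 20515 of 47230 probes were detected per array, that is, had a detection p under 0.05 against the negative control probes. The PTK7 probe with the highest signal was detected in HT1080, PTK7 and Chz cells, and its level was at least 1.94-fold lower in shPTK7 cells, and in PTK7 cells 1.08-fold higher, than in HT1080. It was also at least 1.76-fold lower in sPTK7, 1.83-fold in cPTK7/622-1070 and 1.74-fold in cPTK7/726-1070 cells, so the drop was not particular to shPTK7 cells. The second PTK7 probe was detected in HT1080 and Chz cells alone and was at least 1.06-fold lower in shPTK7 cells. Whether these probes lie within the expressed constructs was not tested, so they do not check the overexpressing lines. Of 6 mesenchymal markers 4 were detected on all 7 arrays, FN1 on 6 and THY1 on 0. Of 5 epithelial markers 0 were detected on all 7 arrays, and EPCAM and CLDN4 were detected on 1 array each. The 3 endothelial markers were detected on 0 arrays. Of 3 leukocyte markers with a probe, PTPRC and CD3E were undetected and CD14 was detected on 6 arrays.

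The program was expressed in all 7 lines and differed little between them. Of the 33 members with a probe, 30 were detected on all 7 arrays, and the exceptions were SEL1L (6 arrays), SLC7A11 (5 arrays) and CHAC1 (Chz cells alone). Signals are given as log2 of the background-corrected, quantile-normalized signal, and a call required a difference of 2-fold or more against HT1080 with detection on the brighter of the arrays. Of 193 differences between a line and HT1080 cells in which a member was detected on either array, 3 were called, and 30 of the 33 members were never called. The calls were DDIT3 (up-regulated in PTK7 cells), TRIB3 (down-regulated in shPTK7 cells) and SLC7A11 (up-regulated in Chz cells). Over the 7 arrays, 26 members spanned less than 1 on the log2 scale. The median span of the 30 members detected throughout was 0.69, beside 0.76 for the 9550 genes detected throughout. A span of 1 or more was found in 6 of those members and in 27.5% of those genes.

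**Figure D1:**
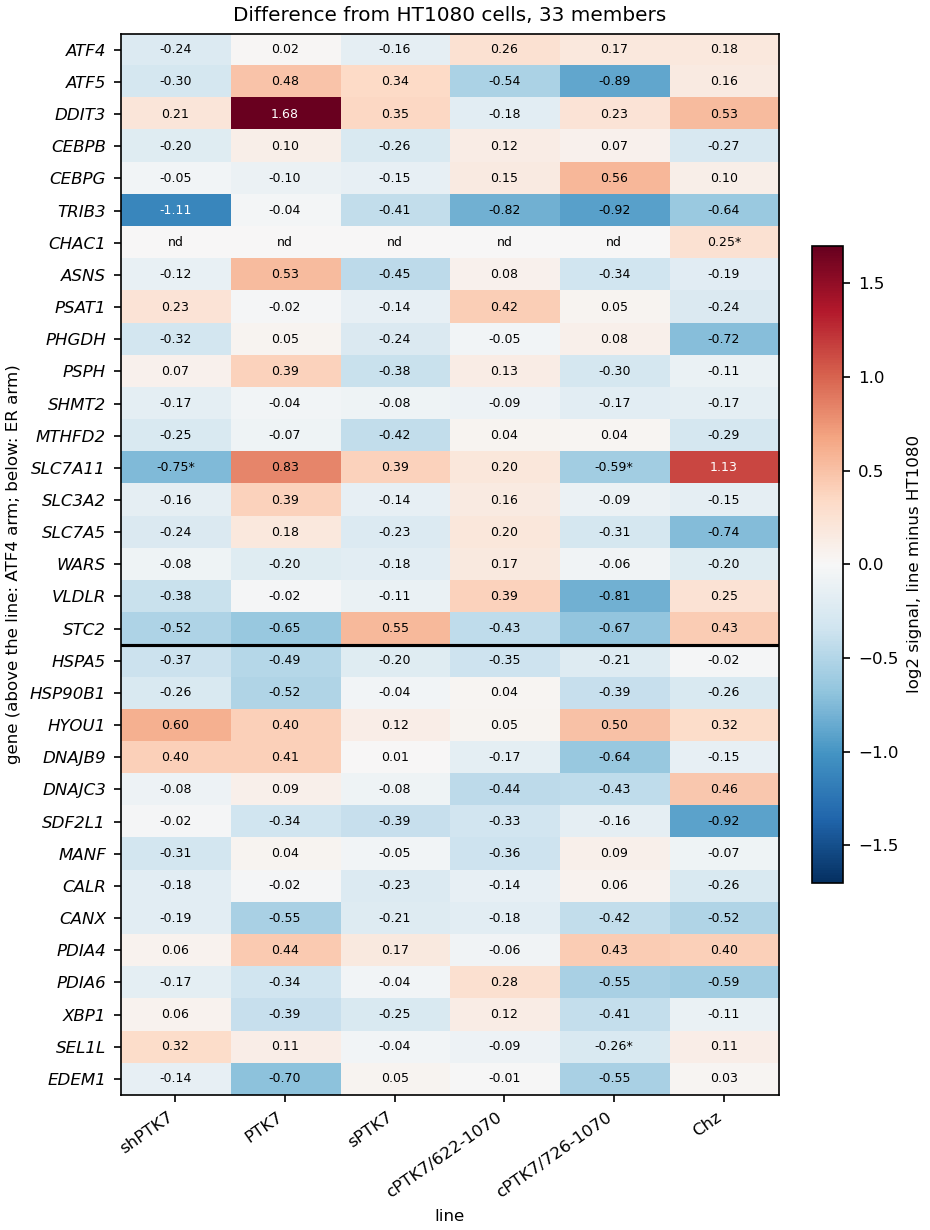
Difference in log2 normalized signal between each line (columns) and HT1080 cells for the 33 members with a probe (rows; the ATF4 arm above the black line, the ER arm below it). "nd" marks a gene undetected on both arrays and an asterisk marks 1 undetected array. The darkest cells are DDIT3 in PTK7 cells (1.68), SLC7A11 in Chz cells (1.13) and TRIB3 in shPTK7 cells (-1.11).

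Counts of members stood close to those over all genes in most lines. In shPTK7 cells 0 of 32 members detected on either array were called higher, beside 1.32% of all such genes, and 1 was called lower, beside 1.77%. In PTK7 cells 1 of 32 was higher, beside 2.79% of genes, and 0 were lower, beside 3.99%. No member was called in sPTK7 cells (2.08% of genes higher and 2.08% lower), in cPTK7/622-1070 cells (0.791% and 0.858%) or in cPTK7/726-1070 cells (1.69% and 1.77%). In Chz cells 1 of 33 was higher, beside 2.29% of genes, and 0 were lower, beside 1.98%. A single member is 3.12% of 32 and 3.03% of 33, so these counts do not set the members apart from other genes.

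Below the 2-fold limit the members lay more often under the HT1080 value than over it in 4 of the 6 lines. Of the 32 members detected on either array, 24 lay below HT1080 in shPTK7 cells and 24 in sPTK7 cells, beside 48.1% and 51.6% of all genes. The share was 65.6% in cPTK7/726-1070 cells, beside 50.5% of all genes, and 60.6% in Chz cells, beside 51.3%. In PTK7 and cPTK7/622-1070 cells 16 members lay above and 16 below. All of these shares rest on the 1 HT1080 array. With arrays scaled to equal 75th percentiles in place of quantile normalization 24 of 32 members lay below HT1080 in shPTK7 (52.2% of all genes), 71.9% in sPTK7 (54.3%), 65.6% in cPTK7/726-1070 (45.0%), 66.7% in Chz (58.3%) and 34.4% in PTK7 cells (43.8%). Members detected throughout were below HT1080 in all 6 lines for 5 genes (TRIB3, SHMT2, HSPA5, CANX and SDF2L1), which is 16.7% of 30, beside 6.74% of all genes detected throughout. With the 75th percentile scaling these were 4 genes. HSPA5, CANX and SDF2L1 remained, HSP90B1 was added, and TRIB3 and SHMT2 dropped out. The share of all genes below HT1080 in all 6 lines is not given for that scaling. HYOU1 alone was above HT1080 in all 6 lines (3.33%, beside 6.80%).

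The median difference of the ATF4 arm was -0.20 in shPTK7, 0.05 in PTK7, -0.15 in sPTK7, 0.12 in cPTK7/622-1070, -0.09 in cPTK7/726-1070 and -0.15 in Chz cells on the log2 scale. The lowest value was in shPTK7 cells, where 15 of 18 detected members lay below HT1080. For the ER arm the medians in the same order were -0.11, -0.18, -0.05, -0.11, -0.33 and -0.09, lowest in cPTK7/726-1070 cells, and 10 of 14 members lay below HT1080 in that line, in sPTK7 and in cPTK7/622-1070 cells. Over all genes detected on at least 1 array the medians ran between -0.03 and 0.07. In PTK7 and cPTK7/622-1070 cells the ATF4 arm had a median above 0 and the ER arm one below 0, a difference between arms that was not tested. The median over all these genes was 0.07 in PTK7 cells, above that of the ATF4 arm, and 0.04 in cPTK7/622-1070 cells. These genes include some undetected on both arrays, which enter at the ratio of the detection floors. Over genes detected on all 7 arrays the medians were -0.005 and 0.00. ATF4 arm members detected on all 7 arrays had medians of 0.02 and 0.12 in these 2 lines. Against the median of the 7 arrays the ER arm median in PTK7 cells was 0.04.

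**Figure D2:**
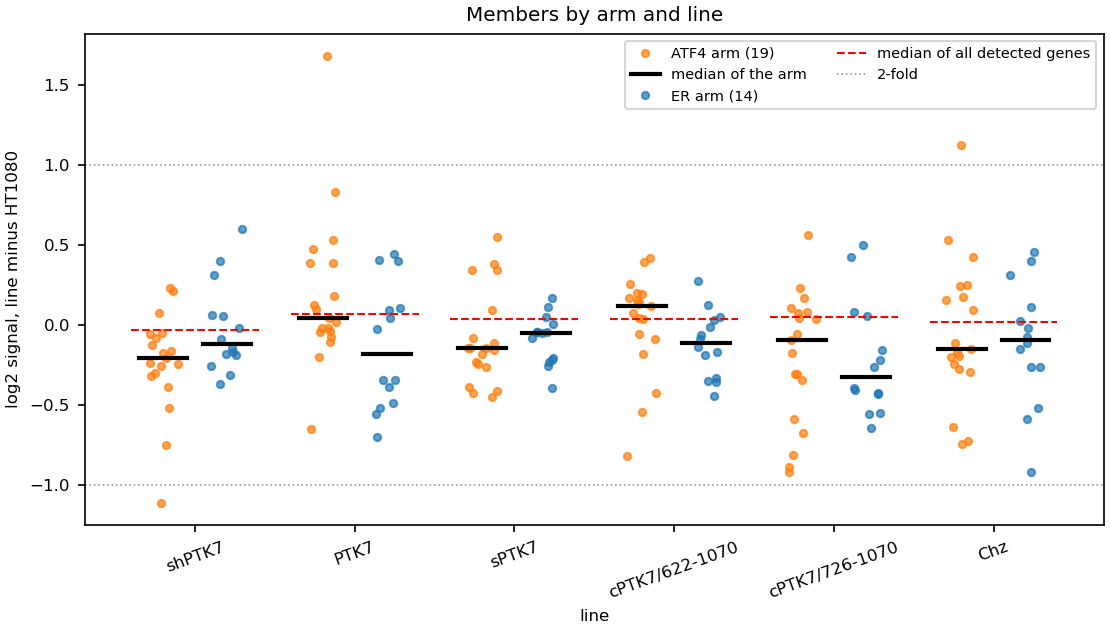
Log2 difference from HT1080 cells of each member (points; 19 of the ATF4 arm in orange, 14 of the ER arm in blue) by line, with the median of each arm (black bars), the median over all genes detected on at least 1 array (red dashes) and the 2-fold limits (dotted). The ATF4 arm of shPTK7 cells (median -0.20) and the ER arm of cPTK7/726-1070 cells (median -0.33) sit lowest, and 3 points lie beyond the 2-fold limits.

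Among the transcription factors, DDIT3 carried the largest difference of any member. DDIT3 encodes the C/EBP homologous protein, which takes part in the cell death program of unresolved ER stress. Its log2 signal was 8.52 in HT1080, 8.73 in shPTK7, 10.20 in PTK7, 8.87 in sPTK7, 8.34 in cPTK7/622-1070, 8.75 in cPTK7/726-1070 and 9.06 in Chz cells. PTK7 cells stood apart, and the other 6 arrays lay between 8.34 and 9.06. The deposited signal was 1241 in PTK7 cells and 489 to 766 on the other arrays. Relative to HT1080 cells, DDIT3 was thus up-regulated 3.21-fold in PTK7 cells. The call held under the 6 alternatives computed for its value, with log2 differences of 1.36 to 1.73. Dropping the floor and keeping only genes detected on all 7 arrays are among the 6 and could not change it.

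ATF4 itself, the activator of this arm, did not pass the limit in any line. Its log2 signal was 14.46 in HT1080, 14.23 in shPTK7, 14.49 in PTK7, 14.31 in sPTK7, 14.72 in cPTK7/622-1070, 14.64 in cPTK7/726-1070 and 14.64 in Chz cells, a span of 0.50. In PTK7 cells, in which DDIT3 was highest, ATF4 differed from HT1080 cells by 0.02. CEBPB, a partner of ATF4 and DDIT3, had log2 signals of 12.93, 12.73, 13.03, 12.67, 13.05, 13.01 and 12.66 in the same order of lines. Its 7 values spanned 0.39, with sPTK7 and Chz cells lowest. CEBPG, another partner of ATF4, which has the core element in its promoter, was highest in cPTK7/726-1070 cells (10.61) and lay between 9.90 and 10.20 elsewhere. ATF5, which is translated under stress much like ATF4, ran from 9.74 in cPTK7/726-1070 cells to 11.10 in PTK7 cells, with 10.63 in HT1080 cells. Its value in cPTK7/726-1070 cells was 1.85-fold below HT1080 and not called.

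TRIB3, a pseudokinase that ATF4 and DDIT3 induce and that restrains their activity, had its highest value in HT1080 cells. The log2 signals were 11.67 in HT1080, 10.56 in shPTK7, 11.63 in PTK7, 11.26 in sPTK7, 10.85 in cPTK7/622-1070, 10.75 in cPTK7/726-1070 and 11.03 in Chz cells. HT1080 and PTK7 cells formed the upper end, and shPTK7 cells were lowest, 2.16-fold below HT1080. In PTK7 cells TRIB3 differed by -0.04 on the log2 scale, a sign that turned in 2 of 6 alternatives, while DDIT3 differed by 1.68. Against the median of the 7 arrays the difference in shPTK7 cells was -0.47, which is under the 2-fold limit. CHAC1, a glutathione-degrading enzyme and a target of ATF4, was detected in Chz cells alone, with a detection p of 0.0234 and a deposited signal of 207.

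**Figure D3:**
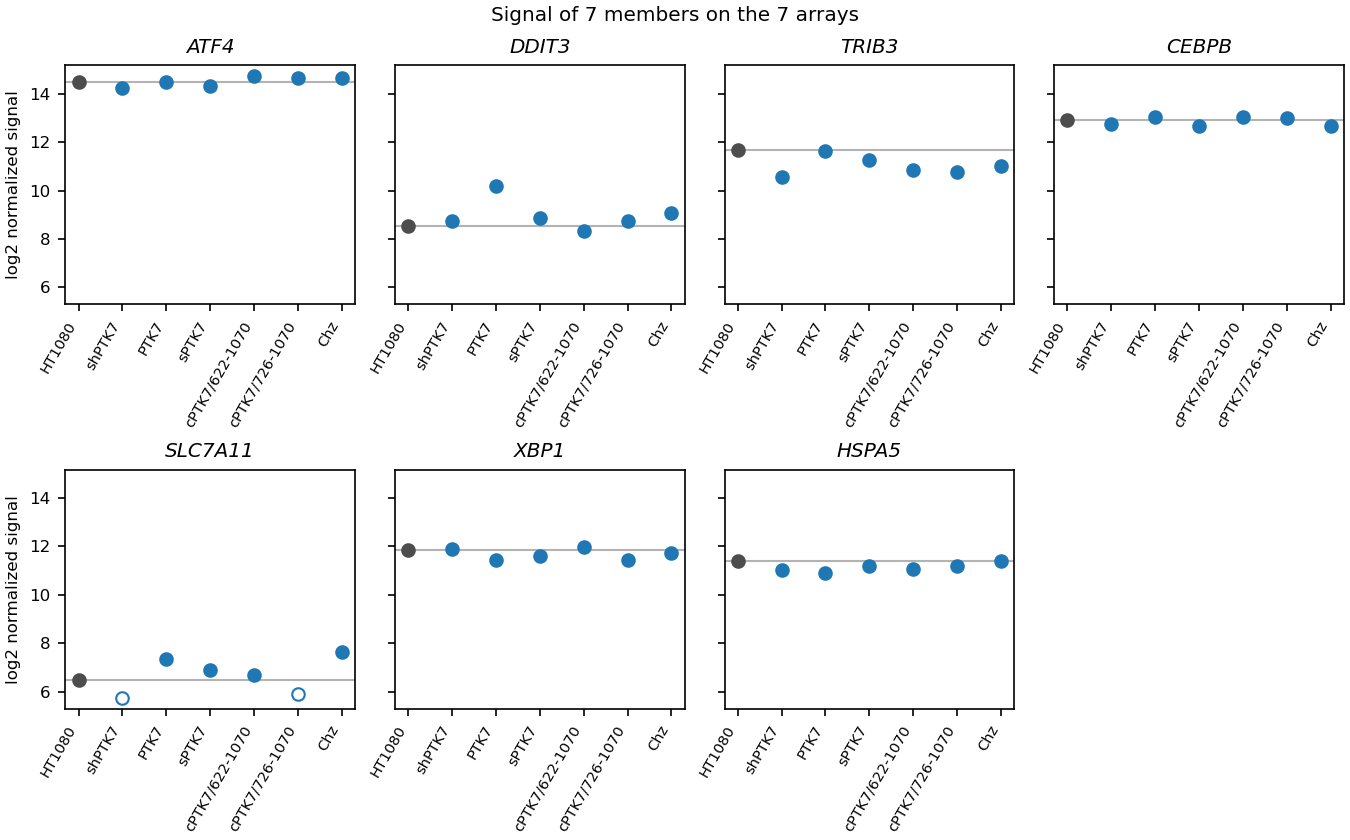
Log2 normalized signal of 7 members on the 7 arrays (1 point per line; the gray line is the HT1080 value and open points are undetected signals raised to the array's detection floor). DDIT3 stands out in PTK7 cells (10.20), TRIB3 is highest in HT1080 (11.67) and PTK7 cells (11.63), and ATF4, CEBPB, XBP1 and HSPA5 stay within about 0.5 log2 units.

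Genes of amino acid supply gave the third call. SLC7A11, the cystine carrier of system xc-, was dim, with log2 signals of 6.50 in HT1080, 7.33 in PTK7, 6.88 in sPTK7, 6.70 in cPTK7/622-1070 and 7.63 in Chz cells. It was undetected in shPTK7 and cPTK7/726-1070 cells, where only the detection floors of 5.75 and 5.91 can be given. Chz cells were highest, 2.19-fold above HT1080 cells, and PTK7 cells followed at 1.78-fold. Across 5 alternatives the log2 difference in Chz cells ranged from 0.55 to 1.13, and it was below the 2-fold limit when the background was not corrected, when the authors' normalized table was used and against the median of the 7 arrays. SLC3A2, the heavy chain with which SLC7A11 and SLC7A5 form transporters, differed from HT1080 cells by -0.16 to 0.39. SLC7A5, which imports large neutral amino acids, had its lowest value in Chz cells (12.80, beside 13.54 in HT1080 cells) and lay between 13.23 and 13.74 on the other arrays. In Chz cells the log2 difference from HT1080 was thus -0.74 for SLC7A5 and 1.13 for SLC7A11. ASNS, asparagine synthetase, which has the core element in its promoter, was highest in PTK7 cells at 12.24 and lowest in sPTK7 cells at 11.26, with 11.71 in HT1080 cells. WARS, the tryptophanyl-tRNA synthetase, spanned 0.37.

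The 5 enzymes of serine and one-carbon synthesis made no call. Their 30 differences from HT1080 cells ran from -0.72 (PHGDH in Chz cells) to 0.42 (PSAT1 in cPTK7/622-1070 cells), and 20 of them were below 0. PHGDH, which opens serine synthesis, was at 12.33 in Chz cells and between 12.74 and 13.14 on the other 6 arrays. SHMT2, the mitochondrial serine hydroxymethyltransferase, had the smallest span of the members detected throughout, 0.17, with its highest signal, 13.22, in HT1080 cells. PSPH, the phosphatase that completes serine synthesis, and MTHFD2, a mitochondrial folate enzyme, were lowest in sPTK7 cells, with log2 signals of 8.74 and 11.85. STC2, a secreted glycoprotein, was higher than in HT1080 cells (10.50) in sPTK7 (11.05) and Chz cells (10.93) and lower in the other 4 lines (9.83 to 10.08). VLDLR, the very low density lipoprotein receptor, was dim and lowest in cPTK7/726-1070 cells (5.96, beside 6.77 in HT1080 cells).

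In the ER arm no member was called in any line. XBP1, the transcription factor of the IRE1 branch, had log2 signals of 11.84 in HT1080, 11.90 in shPTK7, 11.45 in PTK7, 11.59 in sPTK7, 11.96 in cPTK7/622-1070, 11.43 in cPTK7/726-1070 and 11.73 in Chz cells. PTK7 and cPTK7/726-1070 cells were lowest, with differences of -0.39 and -0.41 from HT1080 cells. HSPA5, the chaperone BiP and the standard readout of this response, was at 11.40, 11.03, 10.91, 11.20, 11.05, 11.19 and 11.38 in the same order. It was highest in HT1080 and Chz cells and lowest in PTK7 cells. HSP90B1 (GRP94), the ER form of HSP90, was likewise lowest in PTK7 cells (13.43, beside 13.95 in HT1080 cells). Thus in PTK7 cells, where DDIT3 was up-regulated, the log2 differences of HSPA5, HSP90B1 and XBP1 from HT1080 cells were -0.49, -0.52 and -0.39. The ER arm did not fall as a whole there. Of its 14 members 8 lay below HT1080 and 6 above, among the latter PDIA4 (0.44), DNAJB9 (0.41) and HYOU1 (0.40).

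The other chaperones and cofactors went in several directions. HYOU1, a large ER chaperone of the HSP70 family, ran from 8.78 in HT1080 to 9.38 in shPTK7 cells, 1.51-fold higher. SDF2L1, which assists HSPA5, was lowest in Chz cells (11.03, beside 11.94 in HT1080 cells), 1.89-fold lower. DNAJB9, a cochaperone of HSPA5, ran from 7.79 in cPTK7/726-1070 cells to 8.84 in PTK7 cells. DNAJC3, an inhibitor of eIF2alpha kinases and cochaperone, was highest in Chz cells (8.08) and lowest in cPTK7/622-1070 cells (7.18). MANF, a small secreted ER stress protein, spanned 0.44. The lectin chaperones CALR and CANX, which retain unfinished glycoproteins, lay below HT1080 in 11 of 12 differences, the lowest of them -0.55 for CANX in PTK7 cells.

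The 2 disulfide isomerases did not move together. PDIA6 lay below HT1080 cells (10.71) in Chz (10.12) and cPTK7/726-1070 cells (10.15), while PDIA4 lay above HT1080 cells (7.19) in the same lines (7.59 and 7.61). Of the degradation genes, EDEM1, which directs misfolded glycoproteins to disposal, was lower in PTK7 (9.90) and cPTK7/726-1070 cells (10.05) than on the other arrays (10.45 to 10.65). SEL1L, the adaptor of the ubiquitin ligase complex, ran near the detection floor, up to 6.49 in shPTK7 cells.

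With the limit at 1.5-fold, which names genes after their values were seen, 20 of the 193 differences passed, 4 higher and 16 lower, in 13 members. The lower ones gathered in 2 lines. In cPTK7/726-1070 cells 6 of 32 members (18.8%) passed, ATF5, DNAJB9, SLC7A11, STC2, TRIB3 and VLDLR, beside 7.56% of all genes, and 0 were higher, beside 6.75%. In Chz cells 5 of 33 (15.2%) were lower, PDIA6, PHGDH, SDF2L1, SLC7A5 and TRIB3, beside 8.23%, and SLC7A11 was higher, beside 8.62%. In shPTK7 cells HYOU1 was higher (5.94% of genes) and SLC7A11 and TRIB3 lower (7.01%). In PTK7 cells DDIT3 and SLC7A11 were higher (9.68%) and EDEM1 and STC2 lower (11.2%). TRIB3 was lower in cPTK7/622-1070 cells (4.64% of genes lower, 4.40% higher), and no member passed in sPTK7 cells (7.10% of genes higher, 6.39% lower). TRIB3 passed in 4 lines, each time lower and each time against the same HT1080 array, on which it was highest. Against the median of the 7 arrays its log2 differences were -0.47 in shPTK7, -0.18 in cPTK7/622-1070, -0.28 in cPTK7/726-1070 and 0.00 in Chz cells, so that it passed in none of these lines. No set of members was tested against other genes.

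Further probes were matched for 10 members and show how far probes of 1 gene differed. Of 11 further probes 9 were detected on every array, and those of PSAT1 and VLDLR were detected on 0 arrays. The source of the gaps between probes was not tested. For ATF4 the dimmest of 3 probes gave log2 differences from HT1080 up to 0.95 away from those of the brightest (in cPTK7/726-1070 cells), with the opposite sign in 5 lines. Such gaps reached 0.78 for PSPH in cPTK7/726-1070 cells, 0.73 for HYOU1 in Chz cells and 0.72 for ASNS in sPTK7 cells. In sPTK7 cells the direction of ASNS and of PSPH turned with the probe. There the second ASNS probe was at 9.18, beside 8.90 in HT1080 cells. The second PSPH probe was at 7.98, beside 7.83 in HT1080 cells, and was lowest in Chz cells (7.51). The second HYOU1 probe lay below HT1080 in cPTK7/726-1070 and Chz cells, so its higher signal in all 6 lines holds for 1 probe. The 2 probes of CANX had the same sign in all 6 lines, with a largest gap of 0.26. DDIT3, TRIB3 and SLC7A11 had 1 probe each.

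Further genes of the pathway were counted from lists by name. Of the stress sensors and eIF2alpha regulators 12 of 14 were detected on either array in each line, and the single call was PPP1R15B, a subunit of the eIF2alpha phosphatase, 2.02-fold higher in Chz cells (0 lower, beside 2.29% of all genes higher and 1.98% lower). The call was lost in 3 of 5 alternatives, down to a log2 difference of 0.40. Its log2 signal was 6.97 there and between 5.83 and 6.05 on the other arrays, undetected or just detected. ERN1, which encodes IRE1, was undetected on all 7 arrays. Of 17 cytoplasmic aminoacyl-tRNA synthetases, some of which ATF4 induces, 0 were called in any line. Over all genes 0.791% to 2.79% were called higher and 0.858% to 3.99% lower per line.

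Of 27 further targets assigned to ATF4, 4 were called higher and 1 lower in PTK7 cells, beside 2.79% and 3.99% of all genes, and the list was not tested against other genes. SESN2, TNFRSF10B and CTH are named here after their values were seen. DDIT4, an inhibitor of mTORC1 that hypoxia and p53 also induce, had log2 signals of 8.09 in HT1080, 7.76 in shPTK7, 10.91 in PTK7, 8.49 in sPTK7, 7.11 in cPTK7/622-1070, 7.70 in cPTK7/726-1070 and 7.22 in Chz cells. PTK7 cells stood alone, 7.06-fold above HT1080. INHBE, an inhibin subunit gene, was undetected in HT1080 and cPTK7/622-1070 cells, reached 8.96 in PTK7 cells and lay between 6.17 and 6.86 in the other 4 lines, at least 8.95-fold higher in PTK7 and at least 2.09-fold higher in sPTK7 cells on the normalized scale. The alternatives gave log2 differences of 1.72 to 3.57 in PTK7 cells, and in sPTK7 cells the call was lost in 3 of 5, down to 0.41. SESN2, a stress-induced inhibitor of mTORC1, was at 8.08 in PTK7 and 7.54 in shPTK7 cells, beside 6.52 in HT1080 cells, 2.95-fold and 2.03-fold higher. Its call was lost in 2 of 5 alternatives in PTK7 cells (down to 0.82) and in 3 of 5 in shPTK7 cells (down to 0.49). TNFRSF10B, the death receptor DR5 and a target of DDIT3, was the gene called lower, at 11.88 in PTK7 cells and 12.90 in HT1080 cells, and this call was lost in 2 of 6 alternatives. The ATF3 transcription factor gene, which other stress pathways also induce, had log2 signals of 8.69 in HT1080, 9.14 in shPTK7, 10.65 in PTK7, 9.05 in sPTK7, 7.83 in cPTK7/622-1070, 7.08 in cPTK7/726-1070 and 9.49 in Chz cells. It was highest in PTK7 cells and lowest in cPTK7/726-1070 cells, where it was called lower by 3.05-fold. The calls of DDIT4 and of ATF3 were lost in 0 of 6 alternatives. Other probes were not among these alternatives, since only the brightest probe of each gene in the further lists was examined.

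Outside PTK7 cells the list gave fewer calls per line. In shPTK7 and in sPTK7 cells 2 of 27 were called higher, beside 1.32% and 2.08% of all genes. None was called lower there, beside 1.77% and 2.08%. In cPTK7/726-1070 cells 1 of 27 (ATF3) was called lower, beside 1.77%, and 0 higher, beside 1.69%. CTH, which makes cysteine from cystathionine, was 2.04-fold higher in shPTK7 cells (8.07, beside 7.04 in HT1080 cells), and the call was lost in 3 of 6 alternatives, down to a log2 difference of 0.59. NUPR1, a small stress-induced chromatin protein, was at 7.74 in sPTK7 cells and undetected in HT1080 cells, at least 3.83-fold higher, a call lost in 2 of 5 alternatives, down to a log2 difference of 0.87. In cPTK7/622-1070 cells 0 of 25 were called, beside 0.791% of all genes higher and 0.858% lower, and in Chz cells 0 of 27, beside 2.29% and 1.98%.

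Of the further ER folding, translocation and degradation genes, 32 or 33 were detected on either array in each line. In sPTK7 and in Chz cells 2 of 32 were called higher, beside 2.08% and 2.29% of all genes. In cPTK7/622-1070 cells 1 of 33 was higher, beside 0.791%, and in PTK7 cells 1 of 33 was lower, beside 3.99%. The other counts were 0, and the list was not tested against other genes. OS9, a lectin of ER-associated degradation, was the gene called in most lines, with log2 signals of 6.39 in HT1080, 7.15 in shPTK7, 7.28 in PTK7, 7.58 in sPTK7, 7.52 in cPTK7/622-1070, 7.10 in cPTK7/726-1070 and 7.67 in Chz cells. The HT1080 array was the lowest of the 7, and sPTK7, cPTK7/622-1070 and Chz cells passed the limit, at 2.29-fold, 2.19-fold and 2.44-fold. SEC24D, a coat protein of vesicles that leave the ER, was 3.30-fold higher in Chz (8.77) and 2.38-fold higher in sPTK7 cells (8.30) than in HT1080 cells (7.05). TXNDC11, a thioredoxin-domain protein of the ER, was called lower in PTK7 cells (7.71, beside 8.94 in HT1080 cells). Under the alternatives OS9 fell below the 2-fold limit in 3 of 6 in each of the 3 lines, TXNDC11 in 3 of 6, and SEC24D in 3 of 6 in sPTK7 and 1 of 6 in Chz cells.

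**Figure D4:**
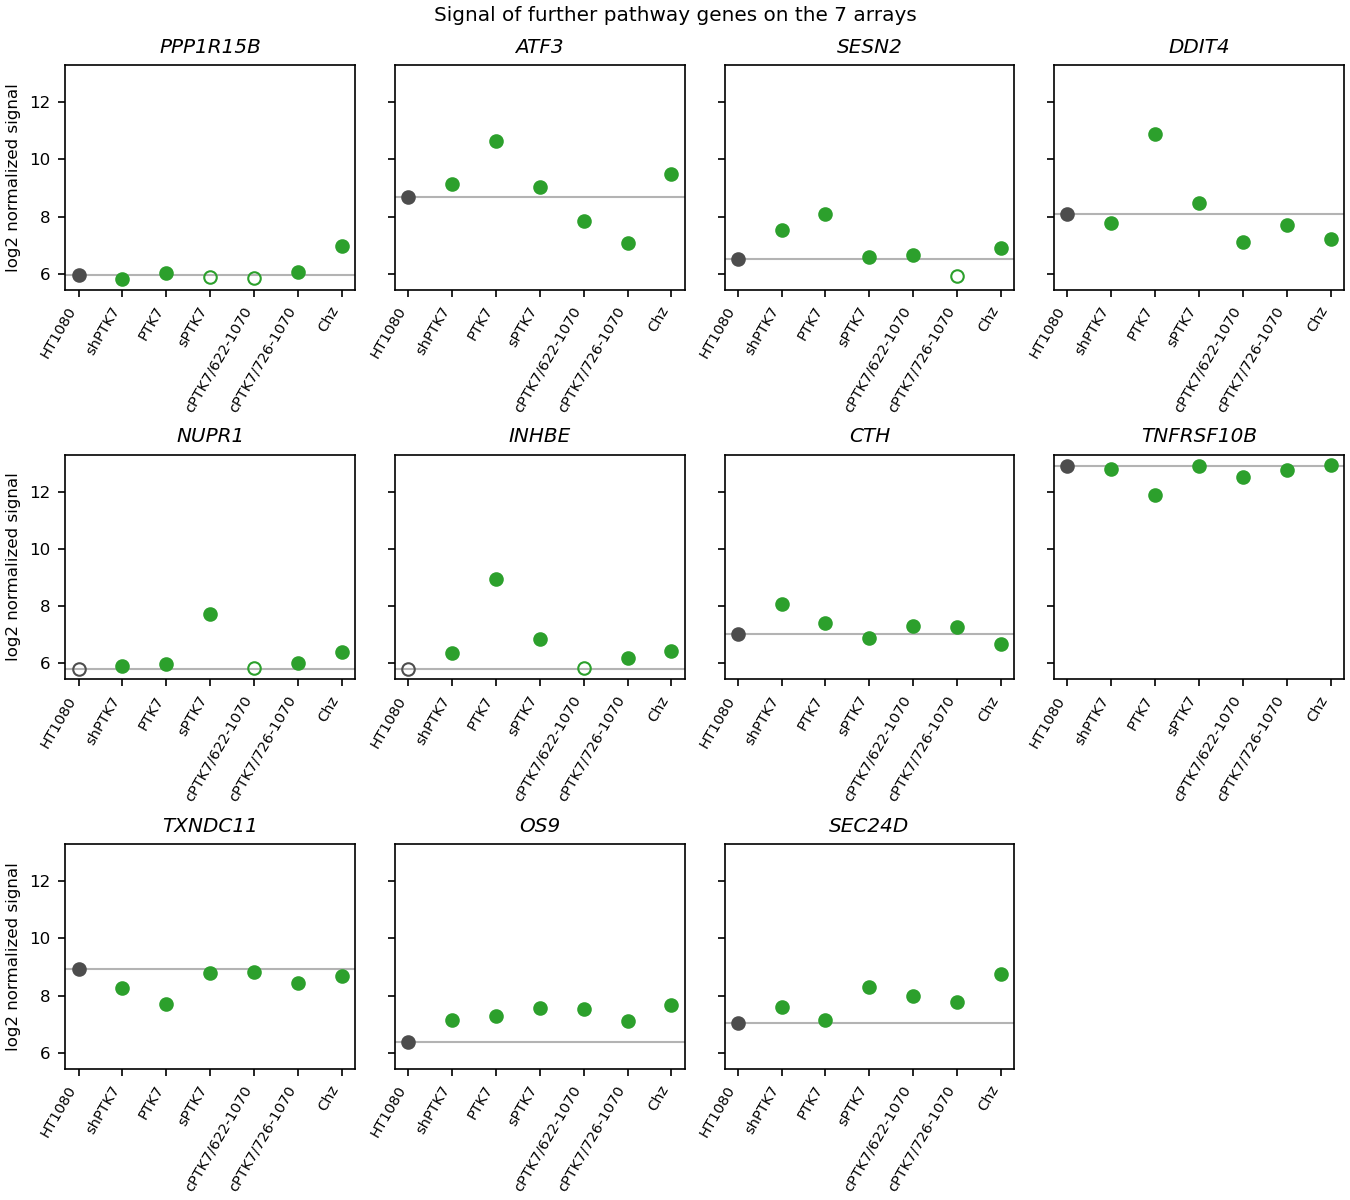
Log2 normalized signal on the 7 arrays of the further pathway genes called in at least 1 line (gray line, HT1080 value; open points, undetected). DDIT4 (10.91), ATF3 (10.65) and INHBE (8.96) are highest in PTK7 cells, whereas OS9 is lowest in HT1080 cells (6.39).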

How the data were processed

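RNA of 7 HT1080-derived lines, 1 array each on 1 chip, was hybridized as labelled cRNA (750 ng, 18 h, 58 °C). The intensity values used are mean bead signals of 47230 probes, deposited by the authors without normalization between arrays, and the detection p-value beside each, deposited by the authors, is the share of negative control probes at least as bright. A second deposited table holds intensities that the authors normalized between arrays by a method not given in the sources used here. It served as an alternative.

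Signals were background-corrected from the detection p-values, normalized by quantiles and log2-transformed with neqc of limma 3.58.1 in R 4.3.3 (offset 16). The rest used Python 3.11.15, numpy 2.4.6, pandas 2.3.3 and matplotlib 3.10.9. Probes were named through the platform annotation, in which 30112 probes had 1 gene, 8 had several and 17110 had none, and WARS was found under the symbol WARS1. Signals below an array's lowest detected signal were raised to it, so a fold against an undetected array is a lower bound, and no fold is given where both arrays were undetected. Such genes enter list medians at the ratio of the floors. The Welch t test of the methods was not run, because every line has a single array. Precision is limited by the number of arrays. The scripts were tested on simulated data.

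The members and lists were chosen with earlier results of these data known. Values on every array are given for members called at 2-fold and for ATF4, DDIT3, XBP1, CEBPB and HSPA5, other members by range, and in the further lists up to 4 called genes with the largest differences. Alternatives were no background correction, scaling to equal 75th percentiles, the authors' normalized table, a detection p under 0.01, no floor, any probe of a gene, the median of the 7 arrays as reference, a 1.5-fold limit, and genes detected on all 7 arrays. For a gene detected on all 7 arrays, dropping the floor or keeping only such genes cannot change its difference. Both are still included in the numbers of alternatives given for such genes.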

Additional observations from a re-analysis of the deposited data

Results flagged for a closer look

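Of the members and further pathway genes, ATF3 alone was called in opposite directions in 2 lines under the same comparison with HT1080 cells. Other genes also had opposite signs between lines, but not with a call in both directions. Its log2 difference was 1.96 in PTK7 cells and -1.61 in cPTK7/726-1070 cells, both past the 2-fold limit, which is a gap of 3.57 on the log2 scale. The difference between the lines was not tested, since each was measured on 1 array and both share the HT1080 array. Over 6 alternatives the value stayed at 1.60 or above in PTK7 cells and at or beyond the 2-fold limit in cPTK7/726-1070 cells, down to -1.97.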

How the results depend on the processing

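Of 108 recomputed counts of called members (12 counts under 9 alternatives), 95 stayed within 1.5 times the main count and 13 did not. Each main count was 0 or 1, so those that stayed were unchanged counts, and the tally does not measure robustness. With a limit of 1.5-fold the counts were 1 higher and 2 lower in shPTK7 cells, 2 higher and 2 lower in PTK7 cells, 1 lower in cPTK7/622-1070 cells, 6 lower in cPTK7/726-1070 cells and 5 lower in Chz cells. Against the median of the 7 arrays 0 members were lower in shPTK7 cells, where TRIB3 was no longer called, and 0 were higher in Chz cells. The count higher in Chz cells was also 0 with uncorrected background, 0 from the authors' normalized table and 0 among genes detected on all 7 arrays, since SLC7A11 was not among them, and it was 2 (CHAC1 and SLC7A11) without the floor. The median of an arm kept its sign under all 6 alternatives tried in 8 of 12 cases. The exceptions were the ATF4 arm in cPTK7/726-1070 cells and the ER arm in shPTK7, PTK7 and sPTK7 cells, which reached 0.00, 0.00, 0.04 and 0.00 against the median of the 7 arrays. For genes near the detection floor, such as SLC7A11, CHAC1, VLDLR and SEL1L, the size of a difference is limited by the background. No paired analysis was possible because each line has 1 array, and for the same reason no replicate could be left out.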
